A study of Mus musculus with 34 samples.

Results

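The data were microarray profiles of mouse thoracic spinal cord, and the contrast described is the change from day 1 to day 3 after a contusion injury in knockout cords minus the same change in wild-type cords. Its members were all probe sets with a usable signal, 24573 of the 45101 on the array, of which 20926 named exactly 1 gene and together stood for 11998 genes. It used 18 of the 34 arrays of the series: 5 of day 1 wild type (day 1 WT), 4 of day 1 knockout (day 1 KO), 4 of day 3 WT and 5 of day 3 KO. WT and KO are the labels trkB.T1 WT and trkB.T1 KO, both on C57BL/6J backcrossed for more than 20 generations, from mice of 8 to 12 weeks. All 4 groups had received a moderate contusion. The remaining 16 arrays were of control cords labelled sham and of cords taken at day 7. They entered the estimate of the spread and a look at these genes outside the contrast. They also counted in the signal filter and in the choice of a gene's brightest probe set. The labels do not say how the knockout was made, which sex the mice were or whether tissue of several mice was pooled. The arrays are labelled biological replicates, with no word on litters or surgery days.

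The contrast asks in which genes the change from day 1 to day 3 depended on genotype. The neurotrophin BDNF signals through TrkB, the product of Ntrk2. A shorter TrkB isoform, trkB.T1, has no kinase domain and is found on astrocytes. After a contusion, neutrophils and then monocytes enter the cord, resident microglia and other cells start to divide, and macrophages and fibroblasts build up at the lesion. A dividing cell switches on its genes in waves, first those of the G1/S transition and DNA synthesis under E2F factors, later those of mitosis, which the DREAM and B-Myb complexes regulate through the CHR element and NF-Y through the CCAAT box. In bulk tissue such as this, fewer cells of a type and less RNA per cell cannot be told apart.

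Values are on the log2 scale, where 1 unit is a 2-fold difference, and array medians lay between 4.139 and 4.39. Of the 18 arrays, 18 lay nearest to the mean of their own time and 9 to that of their own group. Replicates 1 and 2 of day 1 WT were placed by their titles, although other label fields say day 7 for the first and sham for the second. Both were among the 18 nearest to the mean of their titled time, day 1. Ntrk2 checked the genotype: the brighter of the 2 probe sets that read almost no signal in KO lay between 3.12 and 4.94 in the 9 KO arrays and between 10.01 and 10.82 in the 9 WT arrays. Of the 16 arrays outside the contrast, the 4 day 7 KO arrays read 3.96 to 4.53 and 3 arrays labelled sham KO 3.31 to 4.91, but the array labelled sham KO replicate 2 read 9.46, against its genotype label. Without that array, 108 probe sets passed in place of the 111 given below. None of the 6 Ntrk2 probe sets passed the test of the present contrast, with contrasts from -0.65 (adjusted p = 0.769) to 0.08 (adjusted p = 0.849). Skeletal muscle genes differed widely between arrays, with a mean over 13 genes of 11.15 and 13.50 in day 3 KO replicates 1 and 3 and of 4.84 to 5.55 in the other 3 day 3 KO arrays, against 6.59 to 9.25 in day 3 WT. Day 3 WT replicate 2 was the lowest of its group in the mean of the G2/M genes and of the microglial genes, and day 3 KO replicate 3 was high in neutrophil genes.

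Genes of cell division led the genes that passed the test. The contrast was positive for 66 genes, meaning that they climbed more (or fell less) between day 1 and day 3 in KO than in WT, and negative for 10. The largest was Mki67, the proliferation antigen Ki-67, at 3.97 ± 0.63 (SE), followed by the DNA topoisomerase gene Top2a and the mitotic kinase gene Pbk. Of the 66, 32 stood on the lists for G1/S, DNA replication or G2/M, with a median contrast of 1.78, and the other 34 had a median of 1.36. In limma's test with Benjamini-Hochberg adjustment over all probe sets and a threshold of 0.05, 111 probe sets (0.452%) passed, 100 of them higher (0.407%) and 11 lower (0.0448%). By gene, with the brightest probe set standing for each, these were 66 higher (0.55%) and 10 lower (0.0833%) of 11998. At an unadjusted p under 0.05 there were 3153 probe sets (12.8%). Fewer probe sets passed without arrays set apart by their signal or labels. They were 54 without day 3 WT replicate 2, 61 without day 3 KO replicate 3 and 46 without both arrays of conflicting labels. Without day 3 KO replicates 1 and 3, which had the muscle signal, 35 passed. With all arrays kept and the muscle mean as a covariate 120 passed. With the arrays of conflicting labels moved to the groups of their other label fields 11 passed, though both arrays lay nearest to day 1. With only the 18 arrays fitted 30 passed. Of the 76 genes, 8 and 22 kept their call under these 2 settings. All 76 kept their direction, which is likely for genes chosen from largely the same arrays.

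**Figure D1:**
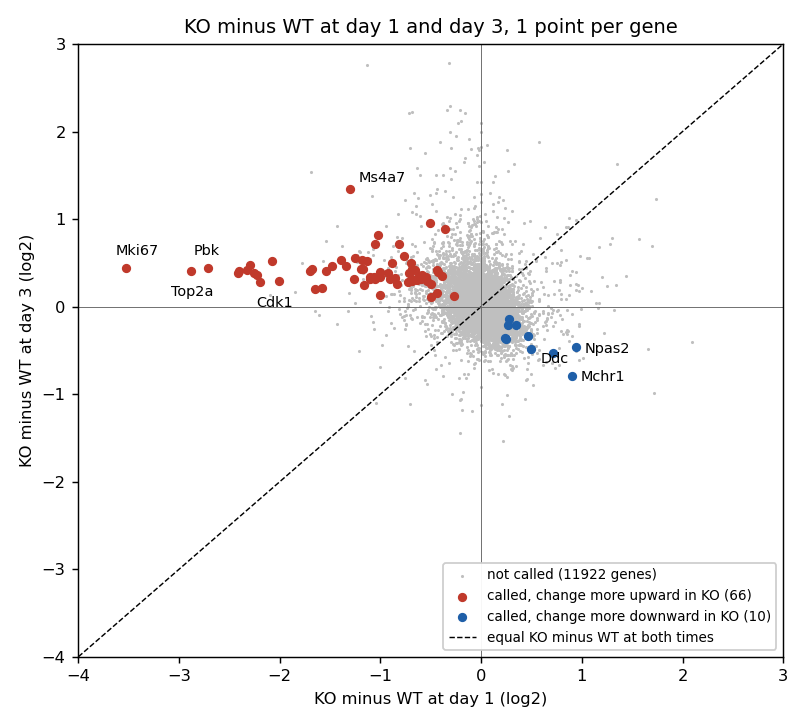
Each point is 1 of 11998 genes, with the KO minus WT difference (log2) at day 1 on the horizontal axis and at day 3 on the vertical axis. The 66 genes called higher (red) all lie left of 0 at day 1 and above 0 at day 3, with Mki67 at -3.52 and 0.44 and Ms4a7 at -1.31 and 1.34, and the 10 called lower (blue) lie on the opposite side.

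Among the 66 higher genes the KO means lay below WT at day 1 and above WT at day 3, mostly by less. KO lay below WT at day 1 in 66 of the 66 higher genes, by a median of -1.04, and above WT at day 3 in 66, by a median of 0.39. In 63 of them the day 3 difference was smaller in size than that of day 1 (5575 of all 11998 genes). The 3 in which it was larger were Ms4a7, the centromere gene Cenpn (-0.51 at day 1, 0.96 at day 3) and Pik3r5 (-0.36, 0.88). The day 3 difference was under 2 SE in 36 of the 66, a smaller share than the 10541 of all 11998 genes. Day 1 WT and day 1 KO arrays did not overlap for 61 of the 66 (4.98% of all genes), while day 3 WT and day 3 KO arrays did not overlap for 1, Ncapd2 (0.8% of all genes). The signs and sizes at both times belong to the contrast that chose the genes, so they describe these genes and are no separate support. Both genotypes were higher at day 3 than at day 1, WT by a median of 1.29 and KO by one of 2.69, in 63 and 66 of the 66 genes. Without day 3 WT replicate 2 the median day 3 difference was 0.25 and 65 of 66 stayed above 0, and with arrays weighted by their quality it was 0.08 with 52 above 0.

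Day 7 and sham arrays, which the contrast does not use, show the same genes at other times. At day 7 the KO minus WT difference of the 66 genes had a median of -0.0008, ran from -0.49 to 0.51 and was negative in 33. In sham cords the median was -0.08, and -0.05 without the array labelled sham KO replicate 2. Mki67 itself stood at -1.34 in sham (-0.88 without that array) and at -0.24 at day 7. The medians of these genes thus read -0.08 in sham, -1.04 at day 1, 0.39 at day 3 and about 0 at day 7.

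**Figure D2:**
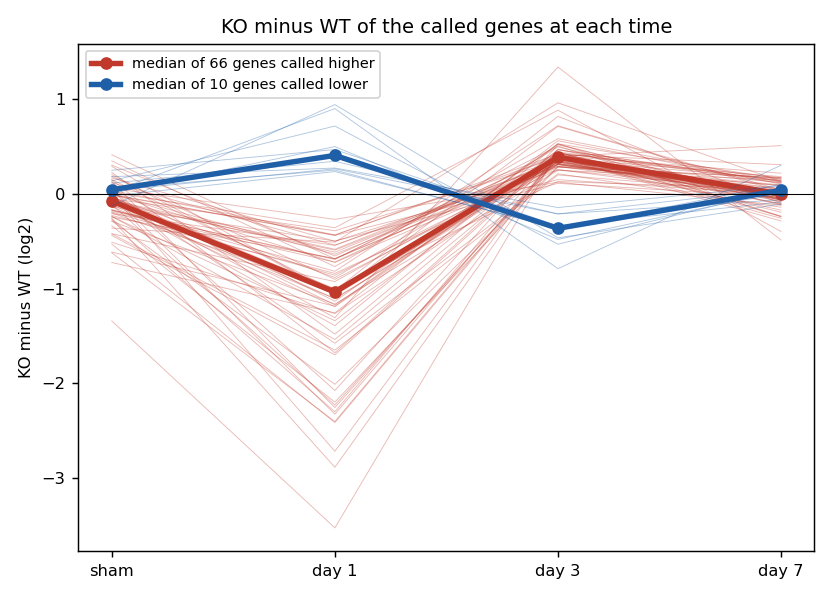
KO minus WT difference (log2, vertical axis) against time (horizontal axis: sham, day 1, day 3, day 7), with 1 thin line per gene called (red, 66 higher; blue, 10 lower) and thick lines for the medians. The red median dips to -1.04 on day 1, turns to 0.39 on day 3 and ends near 0 (-0.0008) on day 7. The sham point includes the array labelled sham KO replicate 2, whose Ntrk2 signal goes against its label.

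The promoters of the 4 highest-ranked genes that RefSeq's promoter table holds are shown because the leading genes moved together and belong to a class with known control elements. Each is the 250 bases before the transcription start in GRCm38.p6, 5′ to 3′ on the gene's strand: Mki67 at chr7:135716380-135716629 (minus strand), Top2a at chr11:99024190-99024439 (minus), Birc5 at chr11:117848987-117849236 (plus) and Rrm2 at chr12:24708004-24708253 (plus). Capitals mark every match, on either strand, to the CHR element TTTGAA, the CCAAT box CCAAT, or either of the E2F forms GGCGGGAA and TTTGGCGC.
Mki67: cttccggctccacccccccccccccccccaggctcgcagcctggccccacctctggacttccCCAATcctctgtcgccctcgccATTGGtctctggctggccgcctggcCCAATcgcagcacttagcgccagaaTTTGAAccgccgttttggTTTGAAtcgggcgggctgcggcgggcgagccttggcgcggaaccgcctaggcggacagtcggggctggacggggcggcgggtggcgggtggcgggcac
Top2a: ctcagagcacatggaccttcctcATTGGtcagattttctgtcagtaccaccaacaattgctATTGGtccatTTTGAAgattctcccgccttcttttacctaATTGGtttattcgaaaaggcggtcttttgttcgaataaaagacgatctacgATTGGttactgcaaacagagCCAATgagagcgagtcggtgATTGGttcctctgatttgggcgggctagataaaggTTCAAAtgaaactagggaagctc
Birc5: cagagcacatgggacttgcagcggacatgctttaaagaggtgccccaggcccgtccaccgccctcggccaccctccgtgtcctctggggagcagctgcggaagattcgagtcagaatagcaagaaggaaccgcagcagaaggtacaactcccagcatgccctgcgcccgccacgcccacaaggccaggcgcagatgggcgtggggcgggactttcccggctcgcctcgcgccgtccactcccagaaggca
Rrm2: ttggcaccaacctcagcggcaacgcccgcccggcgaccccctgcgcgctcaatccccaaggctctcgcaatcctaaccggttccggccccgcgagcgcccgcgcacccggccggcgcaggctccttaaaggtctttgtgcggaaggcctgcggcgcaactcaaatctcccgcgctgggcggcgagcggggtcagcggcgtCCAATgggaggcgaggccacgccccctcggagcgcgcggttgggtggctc
Mki67 held 2 CHR matches, at 116 to 111 and 98 to 93 bases before the start, and 3 CCAAT matches between 188 and 137 bases before it. Top2a held 2 CHR and 6 CCAAT matches, Rrm2 held 1 CCAAT match 50 to 46 bases before the start, and the Birc5 window held none of these letters.

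The same letters were counted in all promoters of the table. RefSeq held 64 promoters for 55 of the 66 higher genes, and TTTGAA stood in 21.9% of them, CCAAT in 59.4% and either E2F form in 9.38%. Of all 32851 promoters, 5252 held TTTGAA, and the shares with CCAAT and an E2F form were 33.8% and 2.25%. Over the 12538 promoters of tested genes the shares of the 3 were 10.3%, 34.7% and 3.96%. For the tested genes of the G2/M list, with 45 promoters of 42 genes, they were 37.8%, 73.3% and 0%, and for those of the DNA replication list, with 28 promoters of 23 genes, 7.14%, 57.1% and 21.4%. A match describes the sequence and is not a bound site.

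Among the leading genes, those of mitosis and DNA synthesis were lower in every day 1 KO array than in any day 1 WT array. Mki67, which coats mitotic chromosomes and marks cells in cycle, read 6.95, 6.74, 6.80, 7.69 and 8.19 in the day 1 WT arrays and 4.12, 3.66, 4.35 and 2.87 in day 1 KO, then 10.27, 9.56, 10.16 and 10.08 in day 3 WT and 10.43, 10.04, 10.92, 10.91 and 10.002 in day 3 KO. All 4 day 1 KO arrays lay below every day 1 WT array, and at day 3 both groups were high and overlapped. The contrast was 3.97 ± 0.63 (SE, adjusted p = 0.000951), from a KO minus WT difference of -3.52 at day 1 to 0.44 at day 3.

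Top2a, the topoisomerase that untangles sister chromatids, read 7.36, 7.00, 6.67, 7.77 and 6.92 in day 1 WT, 4.25, 4.62, 4.47 and 3.69 in day 1 KO, 10.02, 8.71, 9.88 and 9.71 in day 3 WT and 9.91, 9.66, 10.21, 10.37 and 9.79 in day 3 KO. Its contrast was 3.29 ± 0.38 (SE, adjusted p = 9.03e-06). Day 1 KO lay below day 1 WT without overlap, and day 3 WT replicate 2 was the lowest day 3 array.

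Pbk encodes a kinase active in mitosis. Pbk read 6.63, 6.61, 6.36, 7.48 and 5.61 in day 1 WT, 4.10, 4.00, 3.85 and 3.35 in day 1 KO, 10.26, 8.62, 10.13 and 10.13 in day 3 WT and 9.96, 9.82, 10.30, 10.81 and 10.26 in day 3 KO. The contrast was 3.16 ± 0.42 (SE, adjusted p = 9.9e-05), again with day 1 groups apart and day 3 groups overlapping, and with day 3 WT replicate 2 far below the rest of its group.

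Birc5, or survivin, a subunit of the chromosomal passenger complex, read 6.28, 5.82, 6.04, 6.48 and 6.37 in day 1 WT, 3.84, 3.25, 4.70 and 3.38 in day 1 KO, 9.19, 8.60, 8.95 and 8.81 in day 3 WT and 9.26, 8.75, 9.64, 9.86 and 8.93 in day 3 KO. Its contrast was 2.80 ± 0.39 (SE, adjusted p = 0.000144). The highest day 1 KO array was replicate 3, still below all day 1 WT arrays.

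Rrm2 encodes the small subunit of ribonucleotide reductase, which makes the deoxynucleotides for DNA synthesis. Rrm2 read 8.76, 8.65, 8.61, 9.37 and 8.89 in day 1 WT, 6.54, 7.01, 6.57 and 5.66 in day 1 KO, 11.10, 10.37, 10.89 and 10.74 in day 3 WT and 11.07, 10.66, 11.64, 11.63 and 10.78 in day 3 KO. The contrast was 2.79 ± 0.38 (SE, adjusted p = 0.000126), and the probe set is one that can read related transcripts (suffix _x_at). Another Rrm2 probe set, without that suffix, gave 3.15 ± 0.37 (SE, adjusted p = 9.03e-06 in limma's test).

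Ccna2, or cyclin A2, which drives S phase and entry into mitosis, read 5.96, 5.80, 5.67, 6.64 and 6.09 in day 1 WT, 3.86, 4.27, 3.89 and 2.91 in day 1 KO, 8.92, 8.24, 8.73 and 8.75 in day 3 WT and 9.16, 8.77, 9.39, 9.53 and 8.83 in day 3 KO. Its contrast was 2.77 ± 0.33 (SE, adjusted p = 1.04e-05). For all 6 of these genes the day 1 groups did not overlap and the day 3 groups did.

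The next 9 genes of the ranking were of the same kind but for 1. Cep55, needed to cut the bridge between daughter cells, had a contrast of 2.74 ± 0.32 (SE, adjusted p = 9.03e-06), and Cdca5, or sororin, which holds sister chromatids together, one of 2.64 ± 0.30 (SE, adjusted p = 9.03e-06). Pclaf, a PCNA-binding factor, stood at 2.59, the spindle checkpoint kinase gene Bub1 at 2.59, the mitotic kinase gene Cdk1 at 2.48 and the passenger complex gene Cdca8 at 2.30. Shcbp1, which acts at the midbody, and Spc25, of the kinetochore's Ndc80 complex, stood at 2.11 and 2.11. The exception was Ms4a7, a membrane protein gene of macrophages, at 2.65 ± 0.53 (SE, adjusted p = 0.0162). Its KO minus WT difference went from -1.31 at day 1 to 1.34 at day 3, while the day 3 differences of the other 14 genes ran from 0.29 (Cdca8 and Cdk1) to 0.52 (Pclaf). At day 7 the Ms4a7 difference was -0.49.

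**Figure D3:**
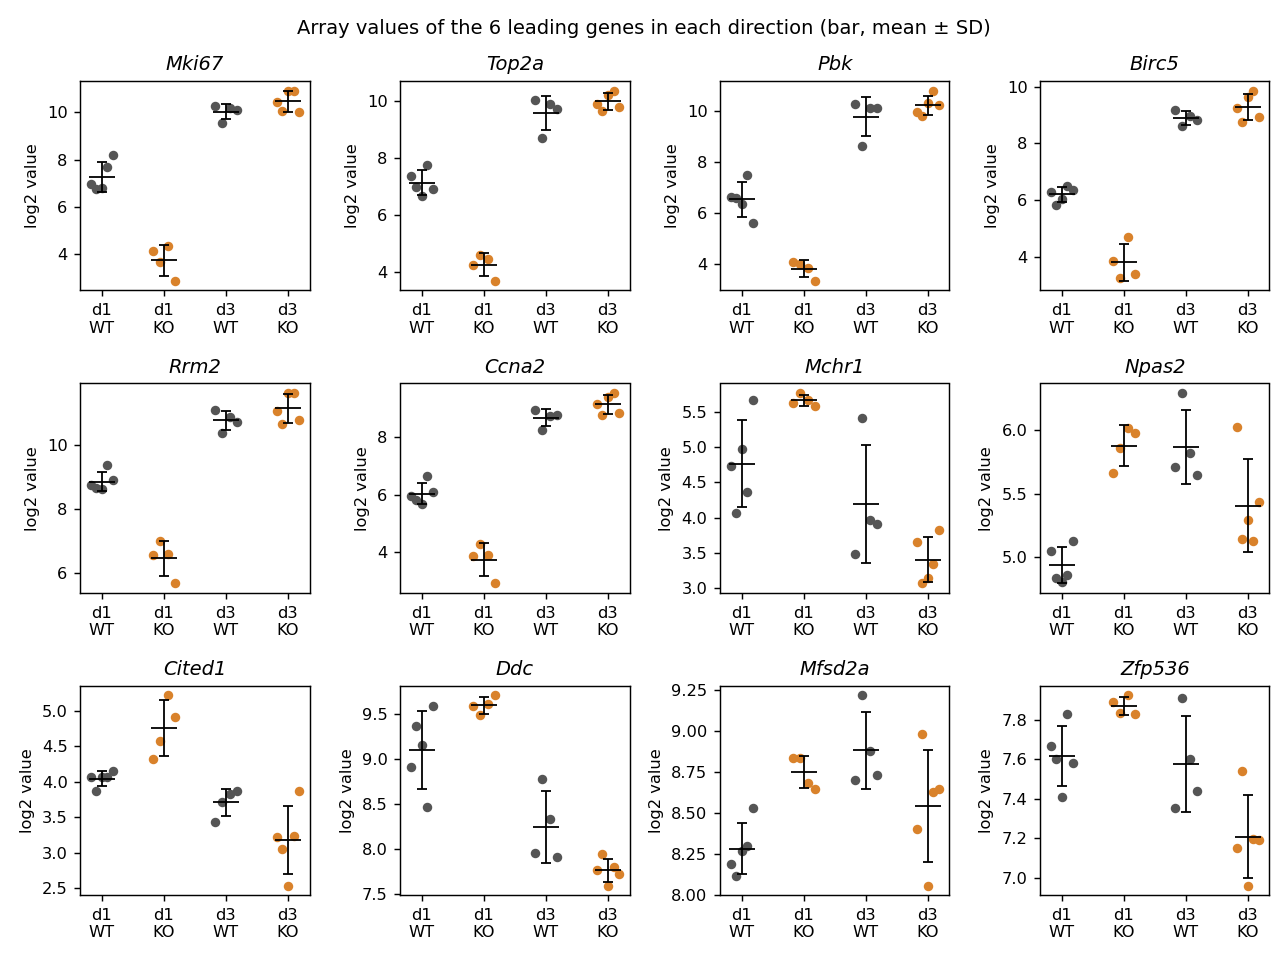
Log2 value of every array (points) with the mean and SD (bars) in day 1 (d1) and day 3 (d3) WT (grey) and KO (orange), for the 6 genes with the largest positive contrast and the 6 with the largest negative one. In the first 6 panels the 4 day 1 KO points lie below all 5 day 1 WT points, while the day 3 groups overlap.

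Some of these values were low on the array's scale, whose lowest deposited value was 2.17. In 25 of the 66 genes the day 1 KO mean lay below 4, the level used to filter probe sets, and in 7 of these the day 1 WT mean did too. At day 3 the KO mean of 0 of the 66 lay below 4. Of the 52 tested genes of the G2/M list, 37 had a day 1 KO mean below 4 and 23 a day 1 WT mean below 4.

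Genes were then read by their place in the cell cycle, from hand-written lists, beside the median of -0.02 over all 11998 genes, of which 47.2% were positive. Of the 11998 genes, 1693 had an unadjusted p under 0.05 in limma's test, the share to set beside unadjusted counts of lists. For G1/S cyclins, kinases and E2F factors, 2 of 17 tested genes passed as higher (0.55% of all genes did), none as lower, and the median contrast was 0.62 with 16 positive. The 2 were Ccne2, or cyclin E2, at 1.60 ± 0.24 (SE, adjusted p = 0.000493) and the pocket protein gene Rbl1 at 1.42 ± 0.31 (adjusted p = 0.0296). With 1 array left out in turn 1 to 5 genes of the list passed. Ccne2 passed under all 38 alternative settings and Rbl1 under 23 of them. The repressor genes E2f8 and E2f7 stood at 1.56 and 1.46 and did not pass (adjusted p = 0.103 and 0.173).

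DNA replication genes followed, with 9 of 28 tested genes higher, none lower, and a median of 0.86 with 27 positive. The ribonucleotide reductase genes both passed, Rrm2 as above and Rrm1, its large subunit, at 0.94 ± 0.14 (adjusted p = 0.000493). Of the helicase loaders and the MCM helicase, Cdc6 stood at 1.79, Mcm5 at 1.34, Mcm6 at 1.19 and Mcm7 at 0.91. The chromatin factors of replicating DNA, Uhrf1 and Hells, stood at 1.80 and 1.41, and geminin, Gmnn, which blocks a second round of licensing, at 0.88. Pola1, which encodes the catalytic subunit of DNA polymerase alpha, stood at 1.46 and did not pass (adjusted p = 0.0583). This count was 3 to 16 with 1 array left out in turn and 2 without day 3 KO replicates 1 and 3, while the median stayed between 0.76 and 0.99 with 1 array left out.

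The G2/M and mitosis list had the most: 21 of 52 tested genes higher, none lower, and a median of 0.98 with 49 positive. Beside the genes above, the cytokinesis genes Ect2, Prc1 and Kif23 stood at 1.95, 1.92 and 1.66, and the spindle gene Nusap1 at 1.94. Kinetochore and checkpoint genes were Mad2l1 at 1.13 and Cenpe at 1.10, and Incenp, the scaffold of the passenger complex, stood at 0.97. The cohesin acetylase gene Esco2 stood at 1.77, the condensin genes Smc2 and Smc4 at 0.96 and 0.94, and the Cdk-binding gene Cks2 at 1.09. The list's mean per array was 3.90 to 4.07 in day 1 KO and 4.73 to 5.27 in day 1 WT, then 6.95 to 7.79 in day 3 WT and 7.51 to 8.37 in day 3 KO. Day 1 KO lay below day 1 WT in every array, and the day 3 groups overlapped, with day 3 WT replicate 2 the lowest. With 1 array left out in turn 15 to 27 genes passed and the median ran from 0.82 to 1.14, and without day 3 KO replicates 1 and 3 there were 12 with a median of 1.03.

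The list of CDK inhibitors and p53 targets gave no calls in the main fit, and 0 or 1 with 1 array left out in turn. Of the 16 tested genes of this list, 0 passed limma's test and the median was -0.16. At an unadjusted p under 0.05 were 4 of the 16, beside 1693 of all 11998 genes. Cdkn1a, or p21, the inhibitor induced by p53, had a contrast of -1.17 ± 0.40 (adjusted p = 0.225), from 0.86 at day 1 to -0.31 at day 3. Cdkn2c, an inhibitor of the G1 kinases, had the opposite sign at 1.13 ± 0.27 (adjusted p = 0.0518).

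Of the 34 higher genes that stood on none of these 3 lists, some are named here, picked after their values were seen. Centromere genes were Cenpi at 1.62, Cenpk at 1.57 and Cenpn at 1.47, and condensin subunits Ncapg2 at 1.20 and Ncapd2 at 0.74. Fbxo5, an inhibitor of the anaphase-promoting complex, stood at 1.72, the histone chaperone gene Asf1b at 1.84 and the Cdk-binding gene Cks1b at 1.00. Hif1a, of the response to low oxygen, stood at 0.39 ± 0.09 (adjusted p = 0.0478), the semaphorin receptor gene Plxnb2 at 0.86, the sialic acid lyase gene Npl at 1.00 and Pik3r5, a subunit of the phosphoinositide kinase of leukocytes, at 1.24. Norrin, Ndp, a Wnt pathway ligand made by astrocytes, stood at 0.83. The remaining 16, not described further, ran from 0.59 (Topbp1) to 1.85 (Cdca3). Of the 38 alternative settings, Hif1a passed under 12, Ncapd2 under 13, Plxnb2 under 17 and Npl under 33. Pik3r5 passed under 18 and Ndp under 23 of the 37 in which they could be fitted.

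**Figure D4:**
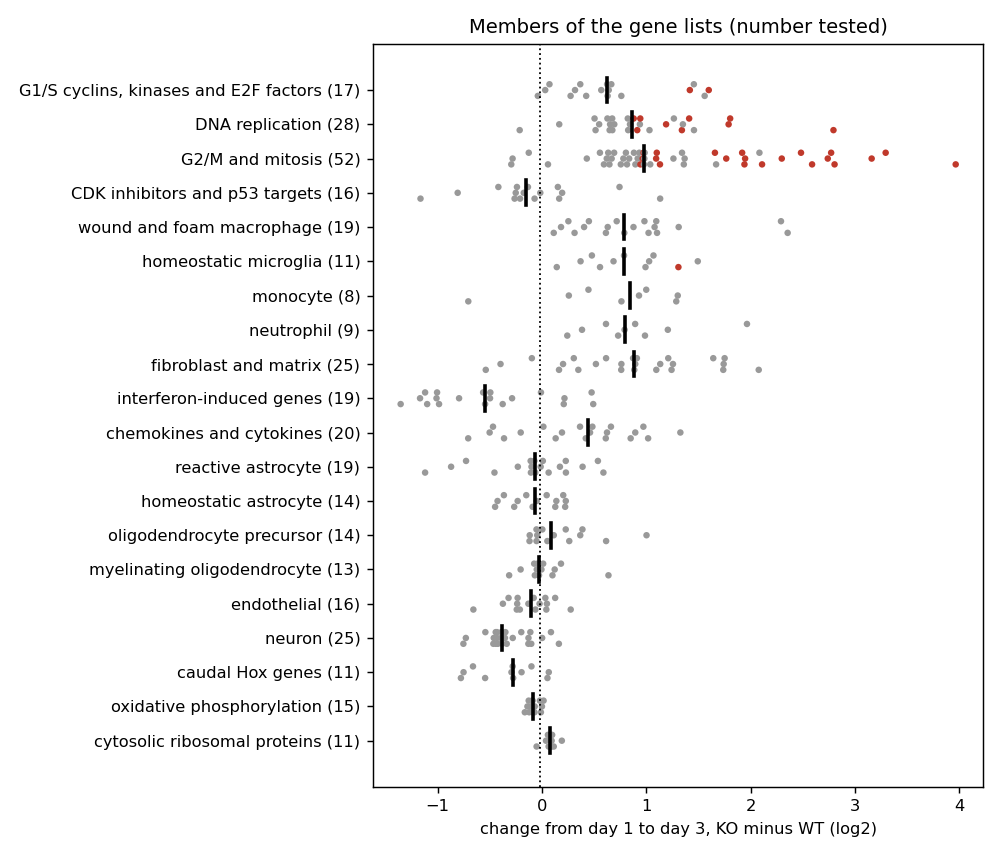
Contrast (log2, horizontal axis) of every tested member of 20 gene lists, 1 point per gene, with the list median as a black bar, genes past adjusted p 0.05 in red and the number tested in parentheses. Called genes lie on the 3 cell cycle lists and, for 1 gene, on the microglia list.

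The 4 myeloid lists had positive medians, with 1 call among them, and the neutrophil median turned with the arrays used. Of 11 tested homeostatic microglia genes 1 passed, Fcrls, an Fc receptor-like gene of microglia, at 1.31 ± 0.29 (adjusted p = 0.0346). Fcrls passed under 24 of 38 alternative settings, and the list had 0 to 2 calls with 1 array left out in turn and 0 with only the 18 arrays fitted. All 11 were positive, with a median of 0.79, and the lysophosphatidylserine receptor gene Gpr34 stood at 1.49 (adjusted p = 0.056) and the purinergic receptor gene P2ry12 at 1.03 (adjusted p = 0.325). The list mean was 6.54 to 6.95 in day 1 KO, 6.93 to 7.34 in day 1 WT, 8.60 to 9.16 in day 3 KO, and 7.58, 8.78, 8.94 and 9.03 in day 3 WT. The value of 7.58 was day 3 WT replicate 2, and without it the median was 0.58. Over all settings the median ran from 0.44 to 0.90.

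Wound and foam macrophage genes had 0 of 19 past the threshold of limma's test. At an unadjusted p under 0.05 were 11 of the 19, beside 1693 of all 11998 genes. All 19 were positive, with a median of 0.79 (0.34 to 1.04 over all settings, 0.54 without day 3 WT replicate 2). The scavenger receptor gene Cd36 stood at 2.35 ± 0.81 (adjusted p = 0.227) and Gpnmb, of lipid-laden macrophages, at 2.29 ± 0.68 (adjusted p = 0.135). Monocyte genes had 0 of 8 (1 unadjusted) and a median of 0.84, led by the chemokine receptor gene Ccr2 at 1.30 ± 0.74 (adjusted p = 0.451). The monocyte median was 0.19 without day 3 KO replicates 1 and 3, and 0.41 without replicate 3 alone. Neutrophil genes had 0 of 9 (0 unadjusted) and a median of 0.79, and their mean per array was 5.97 to 8.99 in day 1 WT, 6.91 to 7.20 in day 1 KO, 5.94 to 8.27 in day 3 WT and 6.85 to 10.37 in day 3 KO. The highest of these arrays was day 3 KO replicate 3, followed by day 1 WT replicate 5. The neutrophil median was 0.18 without the first, 0.30 without the second, -0.17 without both and -0.10 without day 3 KO replicates 1 and 3. It was 0.14 without day 3 WT replicate 2 and 0.01 with arrays weighted by their quality. Over all genes, 96 probe sets passed without the 2 arrays and 72 with the neutrophil mean as a covariate.

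Fibroblast and matrix genes had 0 of 25 past the threshold of limma's test, with 22 positive and a median of 0.88. At an unadjusted p under 0.05 were 3 of the 25, near the share over all genes. Lum, or lumican, a collagen-binding proteoglycan, stood at 2.08 ± 0.84 (adjusted p = 0.305), the fibroblast protease gene Fap at 1.75 and the collagen gene Col1a1 at 1.74 ± 1.12 (adjusted p = 0.499). Without day 3 KO replicates 1 and 3, the arrays with the muscle signal, the median was 0.32, and without day 1 KO replicate 3 it was 0.53.

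Interferon-induced genes had 0 of 19 past the threshold of limma's test and a median of -0.55, with 4 positive. At an unadjusted p under 0.05 were 3 of the 19, near the share over all genes. The median was -0.28 with 8 positive without day 1 KO replicate 1, and -1.02 without day 3 KO replicates 1 and 3. Iigp1, a GTPase against intracellular parasites, stood at -1.36 ± 0.69 (adjusted p = 0.405), from 1.32 at day 1 to -0.04 at day 3, and the guanylate-binding gene Gbp2 at -1.12 ± 0.45 (adjusted p = 0.304), from 1.17 to 0.05. The list mean ran from 7.46 to 8.89 in day 1 KO, 6.61 to 7.47 in day 1 WT, 6.38 to 8.18 in day 3 KO and 6.52 to 6.78 in day 3 WT, so that groups overlapped at both times.

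Neuron genes had 0 of 25 past the threshold of limma's test, with 22 negative. Their median was -0.38, and -0.19 without day 3 KO replicates 1 and 3. At an unadjusted p under 0.05 were 3 of the 25, near the share over all genes. The synaptic vesicle gene Syt1 stood at -0.75 ± 0.41 (adjusted p = 0.44) and Rbfox3, which encodes NeuN, at -0.73 ± 0.33 (adjusted p = 0.353). Lists for reactive and homeostatic astrocytes, which carry trkB.T1, gave 0 of 19 and 0 of 14 (2 and 1 unadjusted) and medians of -0.07 and -0.07. Oligodendrocyte precursors, myelinating oligodendrocytes, oxidative phosphorylation and cytosolic ribosomal proteins had medians of 0.08, -0.03, -0.09 and 0.08 and no calls (1, 0, 1 and 0 unadjusted). Caudal Hox genes, which mark position along the cord, had a median of -0.28 and no calls in 11 (1 unadjusted), and with their mean as a covariate 71 probe sets passed, 68 of them higher.

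**Figure D5:**
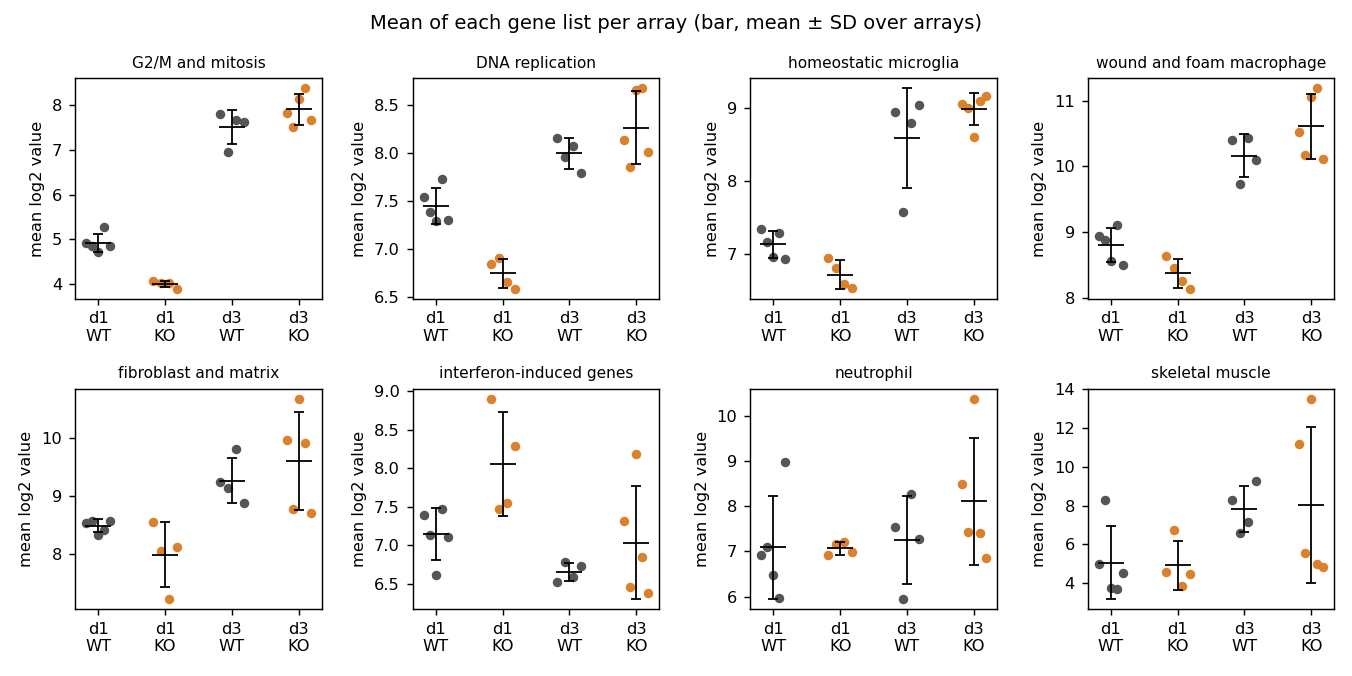
Mean log2 value per array (points) of 8 gene lists, with the group mean and SD (bars), in day 1 (d1) and day 3 (d3) WT (grey) and KO (orange). Day 1 means are lower in KO than in WT for G2/M (4.00 against 4.92), DNA replication (6.75 against 7.45) and microglia (6.72 against 7.14). They are also lower for wound and foam macrophage (8.37 against 8.80) and fibroblast and matrix (7.99 against 8.49). Neutrophil and muscle means differ little beside their spread, and the interferon mean is higher in KO (8.05 against 7.14). The muscle panel shows day 3 KO spread from 4.84 to 13.50.

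The 10 genes with a negative contrast stood higher in KO at day 1, by a median of 0.41, and lower in KO at day 3, by a median of -0.36. In 8 of them the day 3 difference was the smaller in size (5575 of all 11998 genes). Day 1 arrays did not overlap for 5 and day 3 arrays for 1, Msra. At day 7 their median difference was 0.04. As with the higher genes, the values of day 1 and day 3 belong to the contrast that chose them.

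Mchr1, the receptor of melanin-concentrating hormone, read 4.74, 4.07, 4.98, 4.36 and 5.67 in day 1 WT, 5.63, 5.77, 5.67 and 5.59 in day 1 KO, 3.49, 5.41, 3.97 and 3.91 in day 3 WT and 3.65, 3.07, 3.14, 3.34 and 3.82 in day 3 KO. Its contrast was -1.69 ± 0.39 (SE, adjusted p = 0.0408). Day 1 KO was even and high, WT was spread at both times, and the groups overlapped at both. The probe set has the suffix _x_at, like that of Rrm2, and its day 3 KO mean of 3.41 lay below 4.

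Npas2, a clock transcription factor related to Clock, read 5.05, 4.84, 4.80, 4.86 and 5.13 in day 1 WT, 5.66, 5.86, 6.02 and 5.98 in day 1 KO, 5.71, 6.29, 5.82 and 5.65 in day 3 WT and 6.02, 5.15, 5.29, 5.13 and 5.43 in day 3 KO. The contrast was -1.41 ± 0.24 (SE, adjusted p = 0.00243), with all day 1 KO arrays above day 1 WT. The circadian clock list, which does not hold Npas2, had 0 of 12 tested genes past the threshold of limma's test and a median of -0.07. At an unadjusted p under 0.05 were 5 of the 12, beside 1693 of all 11998 genes.

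Cited1, a co-regulator that binds CBP and p300, read 4.07, 3.87, 4.07, 4.07 and 4.16 in day 1 WT, 4.32, 4.58, 5.22 and 4.92 in day 1 KO, 3.44, 3.71, 3.83 and 3.87 in day 3 WT and 3.22, 3.05, 2.53, 3.23 and 3.87 in day 3 KO. Its contrast was -1.25 ± 0.28 (SE, adjusted p = 0.0355), at low values. Day 1 KO lay above day 1 WT in every array, and day 3 groups overlapped.

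Ddc encodes the decarboxylase that makes dopamine and serotonin. Ddc read 8.91, 9.37, 9.15, 8.47 and 9.59 in day 1 WT, 9.59, 9.49, 9.61 and 9.71 in day 1 KO, 7.95, 8.78, 8.34 and 7.91 in day 3 WT and 7.77, 7.94, 7.59, 7.80 and 7.72 in day 3 KO. The contrast was -0.98 ± 0.21 (SE, adjusted p = 0.0296), and the Ddc level was lower at day 3 than at day 1 in both genotypes, from 9.60 to 7.76 in KO and from 9.10 to 8.25 in WT.

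Mfsd2a, a lipid transporter of the blood-brain barrier's endothelium, read 8.19, 8.12, 8.27, 8.30 and 8.53 in day 1 WT, 8.83, 8.83, 8.68 and 8.64 in day 1 KO, 8.70, 9.22, 8.88 and 8.73 in day 3 WT and 8.40, 8.98, 8.05, 8.63 and 8.65 in day 3 KO. Its contrast was -0.81 ± 0.18 (SE, adjusted p = 0.0317), with WT higher at day 3 than at day 1 and KO slightly lower. Day 1 groups were apart.

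Zfp536, a zinc finger repressor, read 7.67, 7.60, 7.41, 7.83 and 7.58 in day 1 WT, 7.89, 7.84, 7.92 and 7.83 in day 1 KO, 7.36, 7.91, 7.60 and 7.44 in day 3 WT and 7.15, 7.54, 6.96, 7.20 and 7.19 in day 3 KO, with overlap at both times. Its contrast was -0.62 ± 0.15 (SE, adjusted p = 0.0482), the least firm of the 10. The other 4 were Msra, which repairs oxidised methionine, at -0.59, Spryd3 at -0.56, Rusc2 at -0.48 and the zinc finger gene Zfp574 at -0.42. The lower calls depended on single arrays: between 1 and 57 probe sets passed when each array was left out in turn, with 1 without day 1 KO replicate 3 and 57 without day 3 KO replicate 2.

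Probe sets of the same gene gave the same sign. Of the 76 called genes, 28 had several tested probe sets, of which all passed in 7 genes and only some in 21, and 0 genes had probe sets of opposite sign. A further 8 called probe sets named no single gene.

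The called genes kept their direction under every one of the 38 alternative settings in which each could be fitted. These settings reuse most of the arrays that chose the genes, so the kept direction is no separate support. Mki67, Top2a, Birc5, Rrm2, Ccna2, Shcbp1, Cdca8 and Ccne2 passed in all 38, with Mki67 between 3.60 and 4.25. RNA quality, read as the actin probe set difference from the 3′ to the 5′ end, was 1.61 to 1.78 in day 1 WT, 1.75 to 1.82 in day 1 KO, 1.39 to 1.54 in day 3 WT and 1.22 to 1.81 in day 3 KO, and with it as a covariate 121 probe sets passed.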

How the data were processed

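Total RNA (Trizol) from thoracic spinal cord was labelled as biotinylated cRNA from 1 µg and hybridised to Affymetrix arrays, per the labels' protocols. The deposited values were made by the authors with GCRMA, per the submitters' processing notes (version not given in the sources used here); their log2 scale was read from the deposited values, which run from 2.17 to 15.904. No genome build for the arrays and no probe position is given in the sources used here. GRCm38.p6 is the build of the RefSeq tables. Depth does not apply to arrays: their number per group limits the precision, and p-values measure the spread between these arrays.

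The 34 arrays were grouped by title. The 64 array controls were left out, and a probe set was tested if 4 or more arrays reached a log2 value of 4. limma 3.58.1 in R 4.3.3 fitted 8 group means (lmFit, eBayes, 26 residual and 2.62 prior degrees of freedom), tested the contrast two-sided, and adjusted p by Benjamini-Hochberg over all 24573 probe sets. SE is limma's and SD is over arrays. Of all probe sets, 34958 name 1 gene in GEO's platform table, 932 several and 9211 none, and 34754 were matched by Entrez identifier to RefSeq (GRCm38.p6). The brightest probe set stood for a gene. Named genes were the 15 largest positive and negative contrasts past the threshold (10 in the latter), all Ntrk2 probe sets, and for a described list its 4 largest members and any that passed. Members, lists and rules were chosen with earlier results of these data known. The 34 lists are described by counts and medians. Replicate numbers do not pair animals in the labels. The fit was tested on simulated data: 70% of planted log2 changes of 1 and 94% of 2 were called (100 each), with 9 other calls among 24573 probe sets. Each probe set there had its own independent normal noise. The simulated arrays thus shared no muscle, neutrophil or label effects, and these rates need not hold for the real arrays. Other groupings, filters, scalings, spread models, covariates and omissions were run as alternatives, 4 of them chosen after seeing the data.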

Additional observations from a re-analysis of the deposited data

Results flagged for a closer look

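For 15 genes the change from day 1 to day 3 was more upward in KO than in WT by limma's test of the difference between genotypes. The log2 differences were 3.97 for Mki67, 3.29 for Top2a, 3.16 for Pbk, 2.80 for Birc5, 2.79 for Rrm2, 2.77 for Ccna2, 2.74 for Cep55 and 2.65 for Ms4a7. They were 2.64 for Cdca5, 2.59 for Pclaf, 2.59 for Bub1, 2.48 for Cdk1, 2.30 for Cdca8, 2.11 for Shcbp1 and 2.11 for Spc25. For 10 genes the change was more downward in KO, with differences of -1.69 for Mchr1, -1.41 for Npas2, -1.25 for Cited1, -0.98 for Ddc, -0.81 for Mfsd2a, -0.62 for Zfp536, -0.59 for Msra, -0.56 for Spryd3, -0.48 for Rusc2 and -0.42 for Zfp574.

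Of 132 groups of arrays examined for a single array far from the others, over the 25 named genes and 8 list means, 6 held one, and chance alone gives about 1 in 20. Day 3 WT replicate 2 was low in Cep55 (7.97), Pbk (8.62) and the mean of the homeostatic microglia genes (7.58). Day 1 WT replicate 4 was high in Cdca8 (6.56), day 1 WT replicate 5 was high in Msra (6.95), and day 1 WT replicate 2 was high in the mean of the skeletal muscle genes (8.28).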

How the results depend on the processing

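The count of 111 probe sets (100 higher, 11 lower) moved with the processing, while no called gene changed direction under any setting. The kept direction is no separate support, because largely the same arrays chose the genes. Counts below are all, then higher, then lower. With only the 18 arrays of the 4 groups they were 30, 29 and 1. With the 2 arrays of conflicting labels moved to the groups of their other fields they were 11, 11 and 0 (limma, 1326 at an unadjusted p under 0.05), and with both left out 46, 44 and 2. Without a filter they were 69, 62 and 7, with array weights 44, 39 and 5, at adjusted p under 0.1 214, 168 and 46, and with a caudal Hox covariate 71, 68 and 3. Lower calls were 17 with an intensity trend, 18 with a muscle covariate and 17 with a gene's probe sets averaged. Chosen after seeing the data, leaving out the array labelled sham KO replicate 2 gave 108, 96 and 12, leaving out the muscle-rich day 3 KO arrays gave 35, 33 and 2, and a neutrophil covariate 72, 67 and 5. Filters at 6 or on the 18 arrays, median centring, quantile normalization, an actin covariate and a fold of 1.5 kept the total within 1.5 times. So did a muscle covariate, with 120, 102 and 18. Leaving out 1 array in turn gave 45 to 270 in all, 43 to 213 higher and 1 to 57 lower. Totals moved by over 1.5 times without day 1 WT replicate 1 (65), 2 (68), 4 (68) or 5 (175), day 3 WT replicate 1 (175) or 2 (54), day 1 KO replicate 3 (49) or 4 (45), and day 3 KO replicate 2 (270), 3 (61), 4 (53) or 5 (207). The cause of these moves was not tested. With the replicate number as a block 441 passed, 314 higher and 127 lower. Deviations of same-numbered arrays correlated from -0.454 to 0.43 (25 pairs, 5 over 0.1), and those of other pairs from -0.421 to 0.478. Of the 18 arrays, 2 were closest to their own number. The labels give no pairing, and this check of whole arrays cannot exclude a shared litter or surgery day. The share of higher calls was 90.1%, and 89.7% and 88.3% after quantile normalization and median centring. It was 71.2% with the block and 78.5% at adjusted p under 0.1. Signal limits the low end: in 25 of the 66 higher genes the day 1 KO mean lay below 4.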

Other observations

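Other groups of genes gave no calls in limma's test of the contrast, in which 1693 of all 11998 genes had an unadjusted p under 0.05. Chemokines and cytokines had 0 of 20 tested genes past the threshold (1 at an unadjusted p under 0.05) and a median of 0.44, with 15 positive. That median was 0.10 with arrays weighted by their quality and 0.18 without day 1 KO replicate 3. Cholesterol synthesis genes had 0 of 17 (2 unadjusted) and a median of -0.14, with 15 negative (-0.05 without day 3 KO replicates 1 and 3). Endothelial genes had 0 of 16 (0 unadjusted) and a median of -0.11 (-0.28 to 0.09 over all settings), and of the lymphocyte list 1 of 13 genes was tested. The largest contrast among called probe sets that name no single gene was 2.78.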
